A study of Homo sapiens with 4 samples.

Results

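Respiration in mitochondria rests on 5 protein complexes of the inner membrane, whose subunits come partly from nuclear genes and partly from mitochondrial DNA. The nuclear genes were taken here as the protein-coding genes named as NDUFA, NDUFB, NDUFC, NDUFS or NDUFV genes with a number (complex I), SDHA to SDHD (complex II), UQCR genes and CYC1 (complex III), COX4I to COX8 genes (complex IV), and ATP5F1, ATP5M, ATP5P and ATP5IF1 genes (complex V). The names gave 88 genes of the 58735 in the table, 37 for complex I, 4 for complex II, 10 for complex III, 17 for complex IV and 20 for complex V. The rule used no measured value. Levels were measured in Myla, an established line from mycosis fungoides, which is a T cell lymphoma of the skin. The cells were transduced with lentivirus (10 uL virus medium per 1 mL culture) that carried short hairpin RNA against FOXM1 (shFOXM1, 2 libraries) or a scrambled hairpin (shControl, 2 libraries). Medium was changed after 24 h and RNA was taken 72 h later. Both groups therefore carried a virus and came from 1 line, and the labels leave unsaid whether 1 hairpin or several targeted FOXM1. The comparison asked how levels differ when less is made of FOXM1, a forkhead factor that drives genes of the G2 and M phases.

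Complex I takes electrons from NADH and complex II from succinate, and both hand them to ubiquinone. Complex III passes them from ubiquinone to cytochrome c, and complex IV from cytochrome c to oxygen. Complexes I, III and IV move protons across the membrane, and complex V, the ATP synthase, uses their return to make ATP. Textbook regulators of the nuclear subunit genes are NRF1 (nuclear respiratory factor) and the ETS factor GABP, and dividing T cells are known to raise both respiration and glycolysis.

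Library depth was even: shControl 1 had 14147084 reads, shControl 2 had 14778639, shFOXM1 1 had 15017728 and shFOXM1 2 had 14680094. FOXM1 itself (ENSG00000111206) stood at 26.5 and 27.6 FPKM (fragments scaled to gene length and library size) in shControl and at 9.27 and 5.59 FPKM in shFOXM1 (limma adjusted p = 0.173). Of 14 T cell markers, 8 were at 1 FPKM or more in every library (CD3D, CD3G, CD2, CD8A, TRBC2, PTPRC, IL2RA and IL2RG), CD4 was at 0 in all 4, and CD3E, CD5, CD7, TRBC1 and LCK were under 1. Of 16 markers of B cells, monocytes, keratinocytes and fibroblasts, 4 reached 1 FPKM in at least 2 libraries (CD79A, CSF1R, TP63 and COL1A1). The summed B cell markers were 1.79 and 1.52 FPKM in shControl and 0.27 and 7.51 FPKM in shFOXM1, with overlap between the groups. Monocyte and keratinocyte sums also overlapped, while the fibroblast sum was 2.58 and 2.80 FPKM in shControl against 3.26 and 4.5 FPKM in shFOXM1, carried by COL1A1 (2.5 and 2.75 against 3.23 and 4.48 FPKM). Mitochondrial genes took 5.93 and 5.88% of reads in shControl, 5.72% in shFOXM1 1 and 4.98% in shFOXM1 2. The part of these differences between libraries in the results was not tested.

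The subunit transcripts stayed close to their control levels. Of the 88 genes, 79 had at least 1 FPKM in at least 2 libraries and were tested (36, 4, 10, 11 and 18 for complexes I to V), and 77 had at least 100 reads in every library. With limma's moderated test and Benjamini-Hochberg adjustment over 12033 genes, 0 members were higher and 0 lower in shFOXM1 at an adjusted p under 0.05, as for 0% of all genes. At an unadjusted p under 0.05, 4 members were higher, with NDUFA8, NDUFA10 and NDUFB1 among them, and 1 lower (NDUFB6), or 5.06% and 1.27% of members where 8.82% and 8.99% of all genes were higher and lower. These counts depend on the libraries kept. They rose when either shFOXM1 library was left out and fell when either shControl library was, and the shares of all genes moved the same way. Levels in a bulk sample cannot tell fewer cells with a transcript from less of it per cell.

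Both shFOXM1 libraries lay above both shControl libraries for 23 members and below them for 17, and the groups overlapped for 39. Over all genes tested 27.3% lay above, 25.9% below and 53.2% in either direction, against 50.6% of the members. The median log2 fold change of the members, on the log2(FPKM + 1) scale used throughout and as shFOXM1 minus shControl, was 0.01 (all genes: 0.00), with 42 members higher and 37 lower by sign (49.9% and 50.1% of all genes). The differences were small in size. The members' log2 fold changes were farthest from 0 for UQCRH (-0.51) and had a median size of 0.10 where all genes had 0.20. A difference of more than 0.25 in either direction, a size chosen after the values were seen, was found for 10 of 79 members (12.7%) and for 41% of all genes. Among genes with a mean of at least 5 FPKM it was found for 13.9% of 72 members and for 39.3% of all 7241 such genes. No test was made of these shares, since members share libraries and are not replicates.

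Precision was enough to bound most members. The 95% confidence interval of the log2 fold change lay inside a 1.5-fold change either way (0.58 on the log2 scale) for 65 of the 79, with a median width of 0.31 to each side. By complex these were 26 of 36 for complex I, 2 of 4 for complex II, 8 of 10 for complex III, all 11 for complex IV and all 18 for complex V. Intervals rest on 2 libraries a group and on limma's pooled spread.

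**Figure D1:**
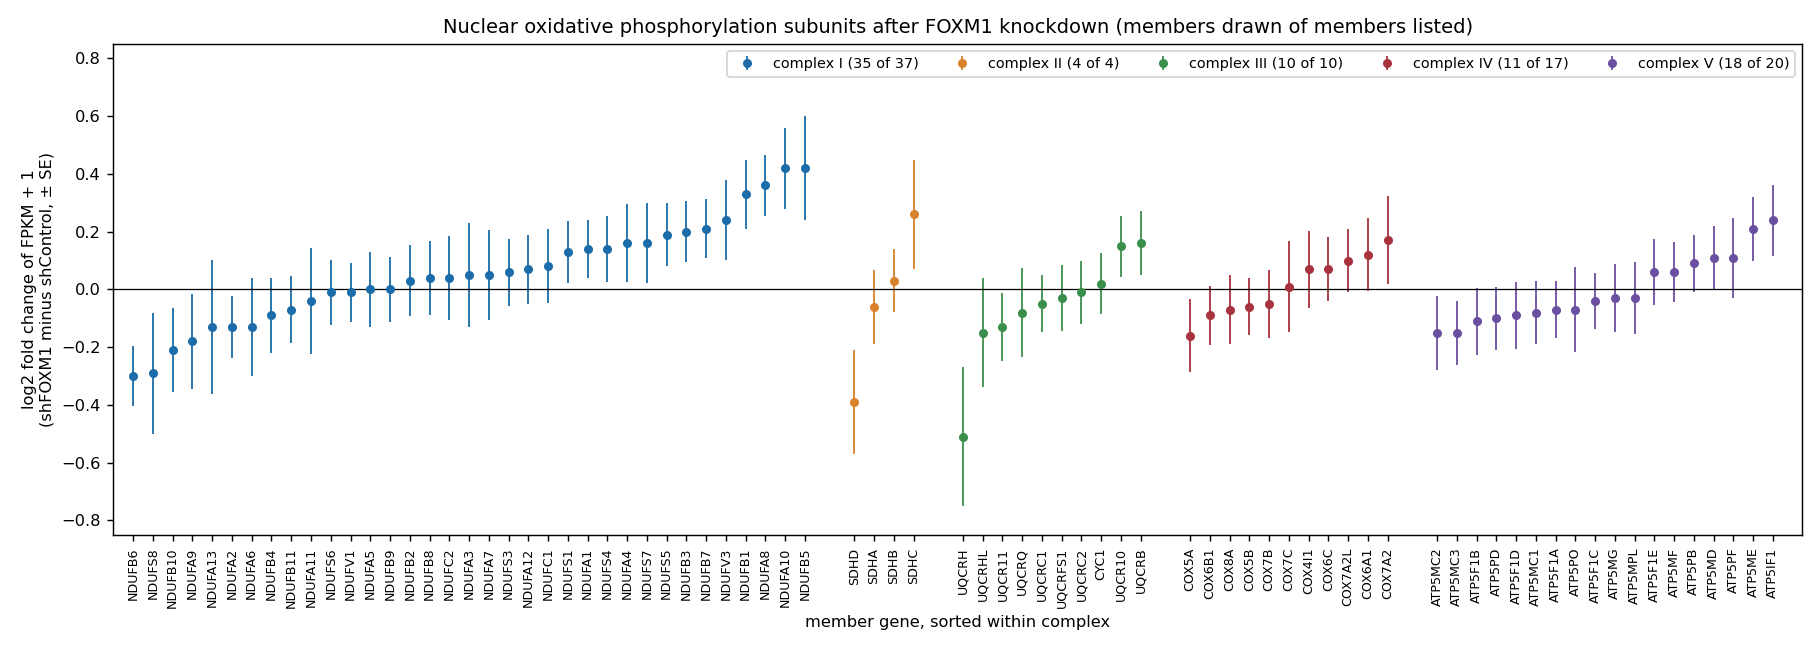
Log2 fold change of FPKM + 1 (shFOXM1 minus shControl, vertical axis) for 78 of the 79 members tested, sorted within complexes I to V; points are limma estimates and bars are ± SE. Points run from -0.51 (UQCRH) to 0.42 (NDUFA10 and NDUFB5), and 0 members passed the test.

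**Figure D2:**
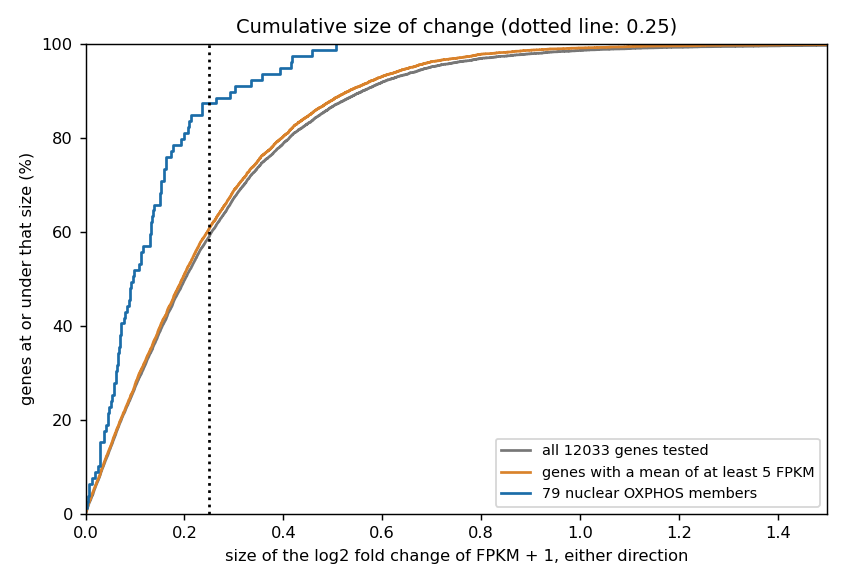
Cumulative share of genes (vertical axis, %) at or under each size of log2 fold change of FPKM + 1 (horizontal axis), for the 79 members, all 12033 genes tested, and genes with a mean of at least 5 FPKM. At the dotted line of 0.25 the members' curve lies above both others, as 12.7% of members against 41% of all genes were past it.

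The libraries of a group also differed less for the members than for other genes. The members were more abundant, with a median level of 24.4 FPKM where all genes tested had 7.1 FPKM. With a mean of at least 5 FPKM the medians were 28.2 and 13.6 FPKM. The part of abundance in these spreads was not tested. Between the shControl libraries, the log2 difference had an SD of 0.0975 over members and 0.263 over all genes tested. Between the shFOXM1 libraries it was 0.236 over members and 0.424 over all genes. Restricted to a mean of at least 5 FPKM, the members gave 0.0787 and 0.231 and all genes 0.167 and 0.39, so in both sets the shFOXM1 pair was the wider one. Relative to the control mean, 35 members went in opposite directions in the shFOXM1 libraries. When shFOXM1 1 was left out, 7 members passed the limma test as higher (with NDUFB5, NDUFA10, SDHC, NDUFA8, COX7A2 and ATP5IF1 among them) and 6 as lower (NDUFS8, NDUFB10, ATP5F1B, COX5A, NDUFB6 and NDUFA6), among 1360 and 1744 genes in all. Their log2 fold changes then ran from 0.35 to 0.64 and from -0.57 to -0.24. When shFOXM1 2 was left out, 1 member (UQCRH) passed as lower (-0.85), among 355 genes, and 0 members as higher, among 281 genes.

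**Figure D3:**
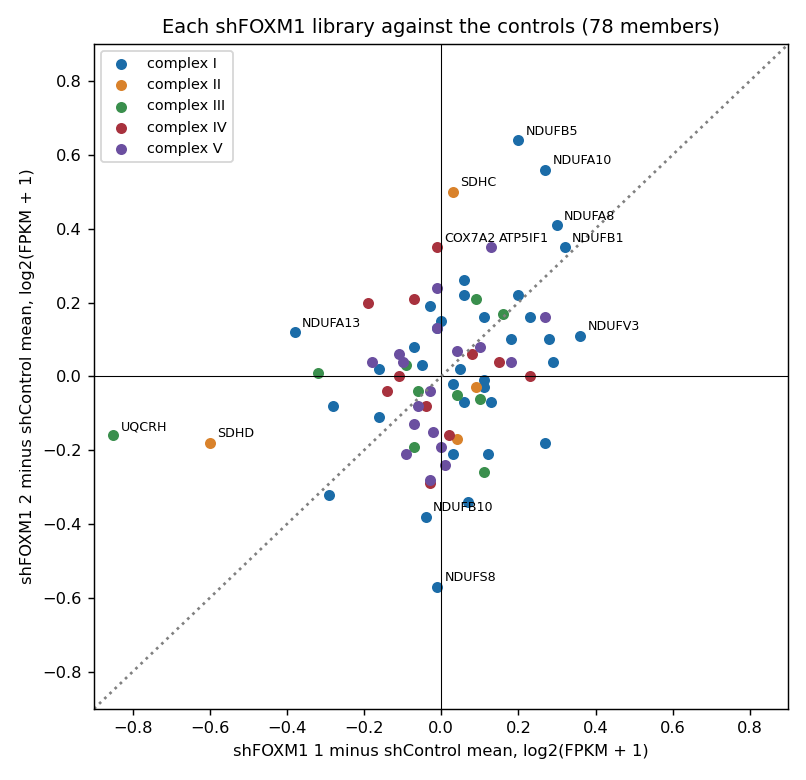
Log2 difference from the shControl mean, on the log2(FPKM + 1) scale, in shFOXM1 1 (horizontal axis) and shFOXM1 2 (vertical axis), 1 point for each of 78 tested members, coloured by complex; the dotted line marks equal differences. UQCRH and SDHD lie far to the left, NDUFS8 and NDUFB10 low, and 35 of the 78 points fall in the quadrants of opposite sign.

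Complex I, the largest complex with 36 of the 79 tested members, held 19 of the 40 members whose groups did not overlap. Of its 36 tested members, 14 lay above the controls in both shFOXM1 libraries, 5 below and 17 overlapped. Their median log2 fold change was 0.05. The complex had 52.8% not overlapping, where all genes had 53.2% (27.3% above and 25.9% below). Its 4 higher and 1 lower members at an unadjusted p under 0.05 were 11.1% and 2.78% of those tested, where all genes had 8.82% and 8.99%. The 7 past a size of 0.25 were 19.4%, where all genes had 41%. The core subunits carry the flavin and iron-sulphur clusters or bind ubiquinone, and of the 6 tested 3 lay above, 1 below and 2 overlapped (median 0.10).

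NDUFS8, a core subunit with iron-sulphur clusters, held 15.3 and 15.2 FPKM in shControl, 15.1 in shFOXM1 1 and 9.91 in shFOXM1 2. The shFOXM1 1 value was just under the controls and shFOXM1 2 far under them, and the log2 fold change of -0.29 ± 0.21 (SE, limma, adjusted p = 0.503) is a mean of unlike libraries. Without shFOXM1 1 it was -0.57. NDUFS1, the largest core subunit, was at 14.8 and 14.4 against 15.8 and 16.4 FPKM. NDUFV1, which binds the flavin that accepts electrons from NADH, was at 41.6 and 41.0 against 39.8 and 42.2 FPKM, with overlapping groups.

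NDUFV2, a core subunit that every complex I contains, was at only 0.364 and 0.525 FPKM in shControl and 0.349 and 0.266 FPKM in shFOXM1, from 11 to 21 reads a library. It was the lowest member of complex I and was not tested. Of the 50-base stretches of its coding sequence (50-base words), 32.7% also occur in the processed pseudogene NDUFV2P1, which itself was listed at 2.41 and 2.47 against 2.16 and 3.40 FPKM. Another 3 annotated genes overlap NDUFV2. How reads that match several genes were counted is not given in the sources used here, so the level of NDUFV2 is uncertain. The cause of its low value was not tested. NDUFA9 at 1.38 to 2.00 FPKM and NDUFA7 at 1.63 to 1.96 FPKM were the lowest members of complex I that were tested.

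Among the 11 NDUFB subunits, which sit in the distal part of the membrane arm, 4 lay above, 2 below and 5 overlapped (median 0.03). Of these, 54.5% did not overlap, where all genes had 53.2%. Members of the same module thus stood on both sides. NDUFB1, a small single-pass subunit, was at 11.1 and 9.82 FPKM in shControl against 13.3 and 13.6 FPKM in shFOXM1 (log2 fold change 0.33 ± 0.12 SE, limma adjusted p = 0.256). NDUFB6 went the other way, from 20.3 and 20.6 FPKM to 16.5 and 16.2 FPKM (-0.30 ± 0.10 SE, limma adjusted p = 0.25). Its shFOXM1 libraries were as close to each other as its controls. NDUFB5 was at 9.07 and 8.51 against 10.2 and 14.2 FPKM, a log2 fold change of 0.42 ± 0.18 (SE) that shFOXM1 2 largely made. NDUFB10, among the most abundant of the module, was at 103 and 99.4 FPKM in shControl, 98.8 in shFOXM1 1 and 77.5 in shFOXM1 2. Its shFOXM1 1 library was just under both controls and shFOXM1 2 clearly lower (-0.21 ± 0.15 SE overall).

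Of the other 19 members placed in complex I by name, mostly accessory subunits, 7 lay above, 2 below and 10 overlapped (median 0.05). Not overlapping were 47.4% of them, beside 53.2% of all genes. NDUFA4, at 10.5 and 10.9 against 13.3 and 11 FPKM, is among these 19 by name but is known as a subunit of complex IV. Counted there, complex I had 13 above, 5 below and 17 overlapping (median 0.05) and complex IV 2 above, 3 below and 7 overlapping (median 0.04). NDUFA10, a subunit of the membrane arm on its matrix face that is related to nucleoside kinases, was at 11.8 and 11.4 FPKM in shControl against 14.3 and 17.6 FPKM in shFOXM1 (0.42 ± 0.14 SE, limma adjusted p = 0.245). NDUFS5, which faces the intermembrane space, was the most abundant member of the complex with 264 and 247 FPKM against 311 and 275 FPKM (0.19 ± 0.11 SE, limma adjusted p = 0.412). Its groups did not overlap, but shFOXM1 2 was only just past the higher control. NDUFV3 (7.51 and 8.08 against 10.3 and 8.48 FPKM) also lay above, while NDUFA6 (42.2 and 39.0 against 42.8 and 31.8 FPKM) overlapped. NDUFAB1, the mitochondrial acyl carrier protein of complex I, falls outside the name pattern and was at 40.4 and 41.9 against 34.9 and 41.4 FPKM (-0.11).

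NDUFA8, an intermembrane-space subunit with a twin cysteine fold, was at 53.2 and 49.8 FPKM in shControl against 63.8 and 68.6 FPKM in shFOXM1. The groups were apart by more than their own spread, and the log2 fold change was 0.36 ± 0.11 (SE, limma, adjusted p = 0.224). Its RefSeq promoter, from 250 bases before to 50 after the start (GRCh38.p14, chr9:122159730-122160029, minus strand), is shown because it holds the motif of NRF1, a regulator of these genes. Among higher members with an NRF1 or ETS match in the promoter, NDUFA8 had the smallest unadjusted limma p. Capitals mark 2 overlapping NRF1 matches, at bases 247 to 256 and 253 to 262 of the window.
NDUFA8 promoter: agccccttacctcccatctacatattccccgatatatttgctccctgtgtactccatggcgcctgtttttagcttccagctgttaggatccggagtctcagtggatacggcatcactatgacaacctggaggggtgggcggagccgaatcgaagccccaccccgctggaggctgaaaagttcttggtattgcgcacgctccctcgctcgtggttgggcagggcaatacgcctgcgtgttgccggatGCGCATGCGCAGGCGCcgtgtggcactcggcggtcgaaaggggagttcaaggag

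The palindromic motif of NRF1 was searched with 1 free base, that of ETS factors as CCGGAAGT, the CHR element of cell cycle genes as TTTGAA or TTCGAA, and a forkhead motif as TGTTTAC, each on both strands. RefSeq windows of the same length were matched for 67 of the 88 members, with 80 promoters in all, and compared with all 35116 promoters. The NRF1 motif was in 16 of the 80 (20%) and in 5.8% of all promoters, and the ETS motif in 11 (13.8%) and in 4.1%. CHR elements were in 4 (5.0%) against 16.4%, and the forkhead motif in 1 (1.2%) against 3.4%. These are counts of letters in a window, not of bound sites, and some members have several promoters. By direction, the NRF1 motif was in 3 of 17 promoters of members above the controls, 5 of 19 of members below and 7 of 39 of members that overlapped. The ETS motif was in 1 of 17, 6 of 19 and 4 of 39. These shares were not tested.

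**Figure D4:**
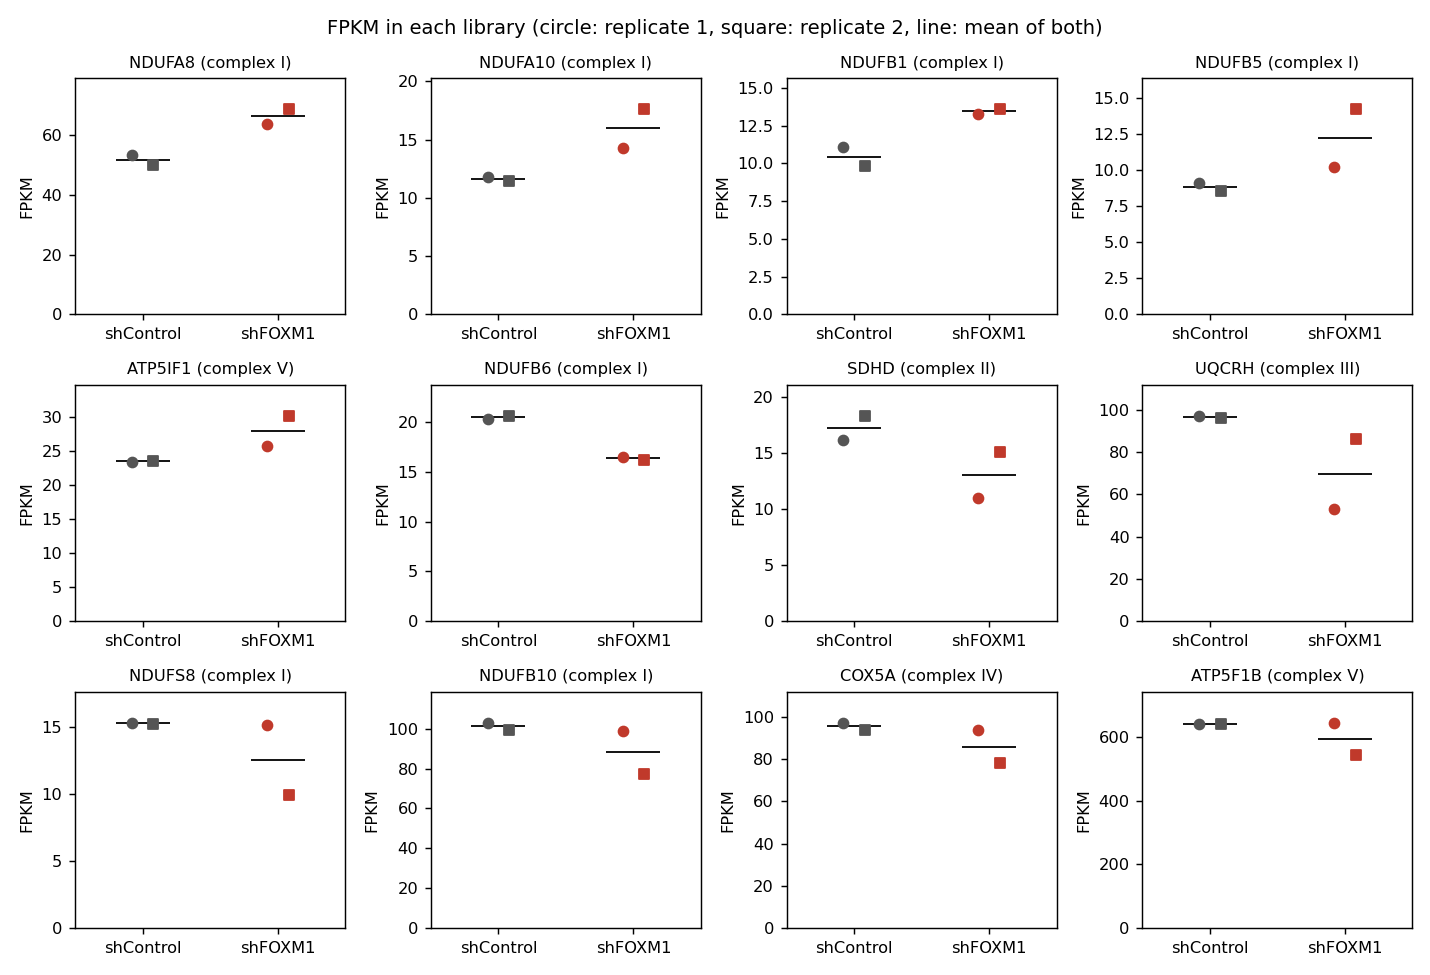
FPKM (vertical axes, each from 0) of 12 members in the 4 libraries, with circles for replicate 1, squares for replicate 2 and lines for the mean of each group. NDUFA8, NDUFB1 and NDUFB6 have groups that are apart in both replicates, while for NDUFS8, NDUFB10, COX5A and ATP5F1B shFOXM1 2 is low with shFOXM1 1 near the controls, and for UQCRH shFOXM1 1 is the lower library.

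Complex II is also succinate dehydrogenase of the citric acid cycle and has no mitochondrially encoded subunit. It showed 1 member above, 1 below and 2 overlapping (median -0.02), or 50% not overlapping, where all genes had 53.2%. The catalytic subunits lay close to their controls. SDHA, which binds the flavin, was at 19.4 and 18.1 against 19.4 and 16.5 FPKM, and SDHB, which carries the iron-sulphur clusters, at 30.7 and 29.3 against 31.9 and 29.5 FPKM. The membrane anchors differed in direction. SDHC was at 6.22 and 6.11 FPKM in shControl, 6.31 in shFOXM1 1 and 9.13 in shFOXM1 2 (0.26 ± 0.19 SE, limma adjusted p = 0.501). SDHD was at 16.2 and 18.3 FPKM in shControl, 11 in shFOXM1 1 and 15.1 in shFOXM1 2 (-0.39 ± 0.18 SE, limma adjusted p = 0.333). The higher value of SDHC was thus mostly in shFOXM1 2, and the lower value of SDHD mostly in shFOXM1 1.

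For SDHD, 66.6% of the coding 50-base words occur in another annotated gene, the highest share of all members. The copy that shares the most such words with its transcript, the processed pseudogene AL031284.1, was at 0.295 and 0.709 against 0 and 0 FPKM. Another copy, the processed pseudogene SDHDP6, was listed at 1.61 and 1.41 against 0.704 and 1.5 FPKM, from 5 to 11 reads. The SDHD promoter (RefSeq, GRCh38.p14, chr11:112086623-112086922, plus strand) also holds an NRF1 match, at bases 141 to 150. It was picked as that of NDUFA8 was, but among lower members, so the opposite directions of the pair follow from the choice. The second run of capitals, at bases 173 to 180, is the ETS motif on the other strand.
SDHD promoter: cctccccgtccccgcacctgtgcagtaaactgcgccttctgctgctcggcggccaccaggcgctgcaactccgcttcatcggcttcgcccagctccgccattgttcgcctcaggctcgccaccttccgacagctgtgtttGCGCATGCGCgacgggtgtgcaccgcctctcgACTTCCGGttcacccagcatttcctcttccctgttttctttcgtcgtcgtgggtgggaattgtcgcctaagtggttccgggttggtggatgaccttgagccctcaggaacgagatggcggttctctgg

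In complex III 1 subunit, UQCRH, was past a size of 0.25. Of its 10 members, 2 lay above, 3 below and 5 overlapped (median -0.04). Not overlapping were 50% of them and 53.2% of all genes. The redox subunits lay close to their controls: CYC1, the heme-bearing cytochrome c1, was at 139 and 142 against 151 and 135 FPKM, and UQCRFS1, the Rieske iron-sulphur protein, at 35 and 38.3 against 34.4 and 37.4 FPKM. Both core proteins, which face the matrix, were also close, with UQCRC1 at 51.3 and 49.9 against 48.6 and 49.2 FPKM and UQCRC2 at 38.1 and 35.5 against 37.8 and 35.5 FPKM. Of the small subunits, UQCR10 (40.9 and 41.1 against 43.7 and 47.7 FPKM) and UQCRB (9.03 and 8.62 against 9.97 and 10.0 FPKM) lay above, and UQCR11 (9.86 and 10.5 against 9.61 and 8.82 FPKM) below.

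UQCRH, the hinge protein that helps cytochrome c1 meet cytochrome c, had the lowest log2 fold change of all members. It was at 97.0 and 95.9 FPKM in shControl, 53.0 in shFOXM1 1 and 86.1 in shFOXM1 2, from 1938, 1992, 1105 and 1847 reads. Both shFOXM1 libraries were below both controls, but unequally, by 0.85 and 0.16 on the log2 scale. The fitted log2 fold change was -0.51 ± 0.24 (SE, limma, adjusted p = 0.349), with a 95% interval from -1.13 to 0.12. Without shFOXM1 2 it was -0.85, and without shFOXM1 1 it was -0.16. The gene lies at chr1:46303631-46316776, plus strand, in the table's coordinates (GRCh38).

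UQCRH has a near copy, UQCRHL (chr1:15807169-15809348, minus strand), which was at 1.68 and 1.52 against 1.08 and 1.63 FPKM and was the lowest member of the complex. The coding sequences (GENCODE 29) are shown because reads of these genes can be hard to tell apart: both have 273 bases, with 4 differences, and 54.5% of the 50-base words of each occur elsewhere. Counted from 1 at the coding start, with the base of UQCRH first, the differences are G158A, G167A, G231A and G233A, in capitals.
UQCRH coding: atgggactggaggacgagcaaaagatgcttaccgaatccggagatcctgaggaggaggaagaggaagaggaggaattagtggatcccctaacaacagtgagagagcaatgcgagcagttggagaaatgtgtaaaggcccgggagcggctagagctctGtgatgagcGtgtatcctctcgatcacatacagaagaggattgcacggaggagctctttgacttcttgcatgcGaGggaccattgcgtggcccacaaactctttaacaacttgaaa
UQCRHL coding: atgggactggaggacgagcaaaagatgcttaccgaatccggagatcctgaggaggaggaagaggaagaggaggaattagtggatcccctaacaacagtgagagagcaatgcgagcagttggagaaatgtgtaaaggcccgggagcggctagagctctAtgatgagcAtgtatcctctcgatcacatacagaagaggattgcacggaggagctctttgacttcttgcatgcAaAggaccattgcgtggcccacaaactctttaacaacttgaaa
The lower level of UQCRH in shFOXM1 1 was thus accompanied by the lowest level of UQCRHL in the same library. How reads that match both were counted is not given in the sources used here.

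Complex IV was the least spread of the larger complexes, with log2 fold changes from -0.16 to 0.17. Of its 11 tested members 1 lay above, 3 below and 7 overlapped (median 0.01), and 0 were past a size of 0.25. Not overlapping were 36.4% of them and 53.2% of all genes, and 41% of all genes were past that size. COX4I1 and COX5A help to assemble and regulate the enzyme around its mitochondrially encoded core. COX5A was at 97.2 and 93.9 FPKM in shControl, 93.8 in shFOXM1 1 and 78.0 in shFOXM1 2 (-0.16 ± 0.13 SE, limma adjusted p = 0.553). COX4I1 was at 66.8 and 64.4 against 62.2 and 75.9 FPKM, with the shFOXM1 libraries on either side of the controls. COX8A, the most abundant of the complex, was at 147 and 132 against 141 and 124 FPKM, again with overlap.

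Several complex IV subunits exist as a common form and a form restricted to certain tissues, and in Myla cells it was the common form that was measured in each pair. COX6A1 was at 26.5 and 27.6 against 31.9 and 27.1 FPKM, while COX6A2 was at 0 reads in every library. COX7A2 was at 41.2 and 41.7 against 41.3 and 53.3 FPKM, and COX7A1 at 0. COX7B (15.9 and 14.5 against 14 and 15.3 FPKM) and COX8A had partners, COX7B2 and COX8C, that were likewise at 0 in every library. A count of 0 allows up to 3 reads per library at this depth, counting error only. COX4I2 (at most 0.0978 FPKM) and COX6B2 (at most 0.241 FPKM) stayed under 1 FPKM, against 67.9 to 76.0 FPKM for COX6B1. Knockdown did not bring any of these restricted forms to 1 FPKM. COX7A2L, which links complexes III and IV into supercomplexes, was at 22.7 and 23.0 against 25.5 and 23.5 FPKM (0.10).

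Complex V had 5 members above, 5 below and 8 overlapping (median -0.03), and 0 past a size of 0.25. Its 55.6% not overlapping stood beside 53.2% of all genes, of which 27.3% lay above and 25.9% below. Past that size were 41% of all genes. The 5 subunits of F1, the catalytic head, had a median of -0.07, with 2 below and 3 overlapping. ATP5F1B, its catalytic beta subunit, was the most abundant of all members at 641 and 641 FPKM in shControl, 645 in shFOXM1 1 and 544 in shFOXM1 2, from 19241 to 22176 reads. Only shFOXM1 2 was lower, and the log2 fold change of -0.11 ± 0.12 (SE, limma, adjusted p = 0.641) became 0.05 under quantile normalization. ATP5F1A, the alpha subunit that pairs with it in equal numbers in the protein, was at 52.0 and 51.4 against 49.6 and 48.8 FPKM. The authors' FPKM divides by the length of all annotated exons of a gene, 10908 bases for ATP5F1A and 2322 for ATP5F1B, so these levels cannot be read as subunit ratios. ATP5F1C, the rotating gamma subunit, was at 71.0 and 69.3 against 68.6 and 68.1 FPKM.

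The ring of c subunits turns as protons pass, and 3 genes encode the same mature protein. All 3 had lower means in shFOXM1, with 2 below and 1 overlapping (median -0.15), where 25.9% of all genes lay below. So few genes do not set a direction for the ring. ATP5MC1 was at 46.3 and 48.4 against 46.8 and 42.5 FPKM. ATP5MC2 was at 35.5 and 36.3 against 35.2 and 29.5 FPKM, and ATP5MC3 at 30.1 and 29.1 against 27.8 and 25.4 FPKM. In each the lower value of the shFOXM1 pair was in shFOXM1 2, the library with the lower mitochondrial share.

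The small membrane subunits, which help the enzyme form dimers, had 3 of 5 above and 2 overlapping (median 0.06). Over all genes 27.3% lay above, and no direction is read from so few genes. ATP5ME was at 16.5 and 17.0 against 20.3 and 18.9 FPKM (0.21 ± 0.11 SE, limma adjusted p = 0.377), and ATP5MD at 65.0 and 62.4 against 72.2 and 65.4 FPKM. The 4 peripheral stalk subunits, which hold the head still, had a median of 0.01, with ATP5PB at 50.9 and 50.3 against 54.2 and 53.7 FPKM. ATP5IF1, the inhibitor that binds F1 when the proton gradient fails, was at 23.4 and 23.5 against 25.7 and 30.1 FPKM. It had the highest log2 fold change of the complex, 0.24 ± 0.12 (SE, limma, adjusted p = 0.382), with both shFOXM1 libraries above both controls. The readthrough locus ATP5MF-PTCD1 and the retrocopy ATP5MGL stayed under 1 FPKM and were not tested.

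Summed by complex, the levels in shFOXM1 lay between 91.5 and 110% of the control mean. Complex I summed to 101 and 99.0% in shControl and to 110 and 104% in shFOXM1, with NDUFS5 as its largest term. Complex II summed to 95 and 97.2% in shFOXM1, complex III to 93.4 and 95.9% with UQCRH among its largest terms, and complex IV to 97.8 and 99.8%. Complex V was at 101% in shFOXM1 1 and 91.5% in shFOXM1 2, and ATP5F1B made up most of that gap. All members together summed to 3405 and 3359 FPKM in shControl and 3448 and 3298 FPKM in shFOXM1. They took 0.884 and 0.87% of nuclear protein-coding reads in shControl and 0.87 and 0.891% in shFOXM1. The total of FPKM times length over nuclear protein-coding genes, relative to its geometric mean, also differed between libraries. It was 1 and 1.006 in shControl, 1.02 in shFOXM1 1 and 0.9746 in shFOXM1 2. The sums by complex were not corrected for this.

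The 13 mitochondrially encoded subunits, made from mitochondrial DNA for complexes I, III, IV and V, summed to 100 and 100% in shControl, 99.0% in shFOXM1 1 and 82.0% in shFOXM1 2. The gap lay in 1 library. Of the 13, 2 lay above, 5 below and 6 overlapped (median log2 fold change -0.07), where all genes had 27.3% above and 25.9% below. MT-CO1, the catalytic subunit of complex IV, was at 8070 and 7960 against 7320 and 5800 FPKM (-0.30 ± 0.13 SE, limma adjusted p = 0.324), and MT-ND4, a proton-pumping subunit of complex I, at 6850 and 6740 against 6150 and 5000 FPKM (-0.29). Under quantile normalization the value for MT-ND4 was 0.00. That method gives genes of equal rank the same value in every library, so it cannot show a shift shared by the top genes. MT-ND4L, beside it, was at 4090 and 4180 against 3680 and 3050 FPKM (-0.30). Without shFOXM1 1 the log2 fold changes of these 3 were -0.47, -0.44 and -0.44, and without shFOXM1 2 they were -0.13, -0.14 and -0.17.

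**Figure D5:**
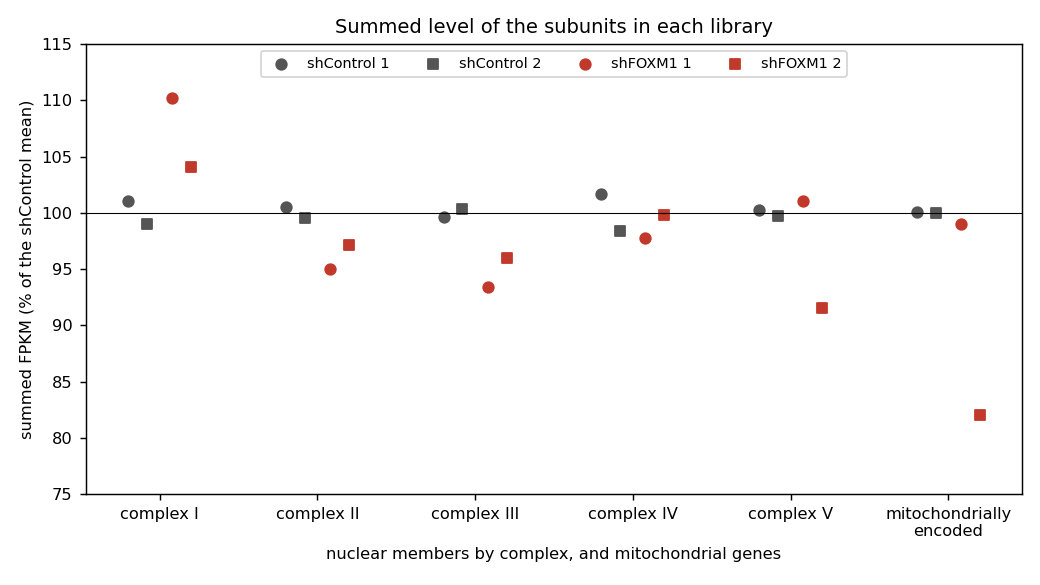
Summed FPKM of the nuclear members of each complex and of the 13 mitochondrially encoded subunits, as a percentage of the shControl mean (vertical axis, which starts at 75%), 1 point per library. Complex I is above 100% in both shFOXM1 libraries (110 and 104%), while complex V (91.5%) and the mitochondrial genes (82.0%) are low in shFOXM1 2 only.

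Proteins that build the complexes without staying in them were described from lists chosen with earlier results of these data known. Limma called 0 of their genes in either direction. Beside the counts below, 27.3% of all genes lay above and 25.9% below. For complex I, 15 of 16 assembly factors were tested, with 2 above, 4 below and 9 overlapping (median -0.10). NDUFAF1, an early factor of the membrane arm, was at 11.8 and 11.1 against 16.4 and 15.5 FPKM (0.44), and ECSIT, in the same assembly complex, at 18.0 and 19.4 against 12.8 and 16.6 FPKM (-0.34). TMEM186, another of its partners, was at 6.06 and 4.52 against 6.32 and 6.90 FPKM. With a library left out, the log2 fold change of NDUFAF1 ran from 0.40 to 0.48. For complexes II, III and V, 13 of 14 were tested, with 3 above, 4 below and 6 overlapping (median 0.02). SDHAF2, which adds flavin to SDHA, was at 4.75 and 4.68 against 6.26 and 5.74 FPKM. UQCC3 (4.79 and 4.01 against 3.75 and 3.15 FPKM) and TMEM70, a factor of complex V (17.7 and 17.7 against 16.4 and 14.8 FPKM), were below.

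The assembly factors of complex IV were higher more often than its subunits by count, a difference that was not tested. Of 22, 19 were tested, with 8 above, 1 below and 10 overlapping (median 0.14), beside 27.3% above and 25.9% below over all genes. SURF1, which acts in early assembly, was at 15.4 and 14.9 FPKM in shControl against 20.8 and 25.3 FPKM in shFOXM1 (0.57 ± 0.14 SE, limma adjusted p = 0.191). COX10, which makes a farnesylated heme that the enzyme needs, was at 20.8 and 17.5 against 36.4 and 24.6 FPKM (0.62 ± 0.22 SE). SCO2, a copper chaperone, was at 1.52 and 2.06 against 2.84 and 3.47 FPKM (0.58 ± 0.18 SE). The shFOXM1 libraries of all 3 were above both controls. With a library left out, SURF1 ran from 0.43 to 0.70 and COX10 from 0.35 to 0.90.

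Electron carriers and enzymes of ubiquinone synthesis had 9 of 19 above, 4 below and 6 overlapping (median 0.17), and 6 at an unadjusted limma p under 0.05, all higher. Over all genes 27.3% lay above, 25.9% below, and 8.82% were higher at that p. COQ10B, a ubiquinone-binding protein, was at 9.19 and 9.34 against 14 and 15.2 FPKM (0.60 ± 0.11 SE, limma adjusted p = 0.176). ETFA, which passes electrons from fatty acid oxidation, was at 29.5 and 28.9 against 42.5 and 40.0 FPKM (0.48 ± 0.10 SE, limma adjusted p = 0.183), and COQ4 at 9.15 and 7.17 against 12.5 and 15.4 FPKM (0.71 ± 0.17 SE). In each the shFOXM1 pair did not overlap its controls. Without shFOXM1 1 the log2 fold changes of COQ10B, ETFA and COQ4 were 0.66, 0.44 and 0.85. Without shFOXM1 2 they were 0.55, 0.53 and 0.56. CYCS, cytochrome c itself, went the other way, at 55.3 and 58.4 against 51.0 and 48.2 FPKM (-0.19).

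Regulators of respiratory genes and of mitochondrial DNA had 3 of 14 above, 6 below and 5 overlapping (median -0.09). The shares over all genes were 27.3% above and 25.9% below. NRF1 was at 5.43 and 5.92 FPKM in shControl against 4.45 and 4.06 FPKM in shFOXM1 (-0.34 ± 0.13 SE, limma adjusted p = 0.263). TFAM, which packs mitochondrial DNA and starts its transcription, was at 24.5 and 23.6 against 20.3 and 16.6 FPKM (-0.37 ± 0.14 SE, limma adjusted p = 0.264). PPARGC1B, a coactivator of these genes, was at 3.89 and 3.58 against 2.79 and 2.02 FPKM (-0.48 ± 0.17 SE), and its relative PPARGC1A was at 0 reads. These 3 were named for the smallest p of their list. Others of the list lay above, POLRMT (29.1 and 31.1 against 35.4 and 31.5 FPKM), POLG and ESRRA, and the GABP subunits overlapped, with GABPA at 10.6 and 12.0 against 7.96 and 14.2 FPKM and GABPB1 at 4.39 and 4.63 against 5.62 and 2.94 FPKM. Without shFOXM1 1 the log2 fold changes of TFAM and PPARGC1B were -0.51 and -0.65, and without shFOXM1 2 they were -0.24 and -0.32.

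Upstream of the chain, pyruvate dehydrogenase and the citric acid cycle had 2 of 17 above, 7 below and 8 overlapping (median -0.09). The shares over all genes were 27.3% above and 25.9% below. CS, citrate synthase, was at 39.2 and 38.2 against 32.0 and 28.5 FPKM (-0.35), and FH, fumarase, at 58.0 and 55.2 against 47.6 and 34.9 FPKM (-0.46). PDHX, a structural part of pyruvate dehydrogenase, was higher at 10.1 and 11.4 against 14.8 and 15.4 FPKM (0.46). Without shFOXM1 1 the log2 fold changes of CS, FH and PDHX were -0.43, -0.68 and 0.48. Without shFOXM1 2 they were -0.27, -0.25 and 0.43. Of the genes by which low oxygen turns cells from respiration to glycolysis, 0 of 8 lay above, 5 below and 3 overlapped (median -0.63). All genes had 27.3% above and 25.9% below. The 3 that overlapped were PDK1 (-0.60), LONP1 (-0.02) and HIGD1A (0). BNIP3L, a mitophagy receptor, was lowest by log2 fold change (-1.38 ± 0.18 SE, limma adjusted p = 0.173). It was at -1.54 without shFOXM1 1 and at -1.21 without shFOXM1 2. LDHA, which turns pyruvate to lactate, had -0.97 ± 0.34 (SE), or -1.48 without shFOXM1 1. NDUFA4L2, a hypoxia-induced relative of a respiratory subunit, was at 2.08 and 1.91 against 1.37 and 1.68 FPKM. MXI1, an antagonist of MYC, was at 4.71 and 2.97 against 2.16 and 1.65 FPKM (-0.72).

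The counting of reads from copies bears on several members. Coding 50-base words shared with another annotated gene made up 50% or more for 5 members (SDHD, COX6A1, UQCRFS1, UQCRH and UQCRHL), and 54 had none. The 14 tested members with at least 20% shared had a median log2 fold change of -0.01 (4 above, 2 below, 8 overlapping), and the other 65 of 0.03 (19 above, 15 below, 31 overlapping). Over all genes 27.3% lay above and 25.9% below. Of 159 pseudogenes named after members, 128 were at 0 reads in every library and 8 passed the filter. Another annotated gene overlaps 56 members, and the strand setting of the counting is not given in the sources used here. Across the 79 members, log2 fold change in shFOXM1 1 and 2 had Spearman correlations of -0.08 and 0.09 with gene length, given as a description over genes that share libraries.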

How the data were processed

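The deposited table holds the authors' FPKM, scaled to gene length and library size, for 58735 genes in 4 libraries, per the file headers. The library size implied by FPKM differed from the read total by 0.319 and -0.173% in shControl and by -1.442 and 3.797% in shFOXM1. Median-of-ratios factors were 1.006 in every library, so scaling by them was no separate check. The aligner is not given in the sources used here, nor are the read counter and strandedness. Mouse builds (GRCm38, mm10) appear in the submitters' processing notes, whereas every gene in the table has the identifier and coordinates of human GENCODE release 29 (GRCh38). Columns named sh0 were taken as shControl and sh1 and sh2 as shFOXM1. There were 0 columns of other samples. Separate transductions are not stated, and p-values thus cover the spread between these libraries only. That spread may be technical or, in shFOXM1, lie between hairpins.

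Multiplying FPKM by length recovered whole reads (100% of values, tolerance 0.001 read). In a 1 kb gene each read equals 0.0656 to 0.0705 FPKM. The 12033 genes that reached 1 FPKM in 2 or more libraries entered limma 3.58.1 (R 4.3.3) as log2(FPKM + 1). The moderated test used a mean-variance trend and was two-sided, with Benjamini-Hochberg adjustment and a threshold of 0.05. The log2(FPKM + 1) scale understates the change of low genes. With 2 against 2 libraries the smallest two-sided exact permutation p is 0.333, so single values have none. The fit was tested on simulated data. Alternatives were other pseudocounts, filters, scalings, voom on the recovered reads, a replicate block and each library left out.

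The members, the companion gene lists, the markers and the motifs were chosen with earlier results of these data known. Genes were named by rule: FOXM1, the 5 members per complex with the smallest p, the 2 most abundant and the lowest, all members past the test, paralogs of complexes III to V, and the 3 genes per companion list with the smallest p. NDUFS1, NDUFV1, NDUFS8, NDUFA7, NDUFA9, NDUFB5, NDUFV3, NDUFA6, ATP5PB, CYCS, NDUFA4, NDUFA4L2, GABPA, GABPB1, POLRMT and other members outside it were named after their values were seen. The same holds for PDK1, LONP1, HIGD1A, COQ8A, PDSS1 and DHODH. SCO2 has 2 rows in the table, and the one with the higher mean was used. The values of 1 gene are not reported here.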

Additional observations from a re-analysis of the deposited data

How the results depend on the processing

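Calls rest on 2 libraries a group, with the wider spread in shFOXM1. At an unadjusted p under 0.05 limma gave 1061 genes higher and 1082 lower, and voom on recovered reads 1127 and 1122, with 0 genes called by either after adjustment. With library weights (2.63 and 2.62 for shControl, 0.381 and 0.38 for shFOXM1) voom called 20 genes higher and 9 lower, FOXM1 among them (-1.89, adjusted p = 0.0202, over alternatives 0.0122 to 0.753), and 0 members. Leaving out each library in turn, where a lone library is assumed to vary like the other group, gave 0 to 1360 genes higher, 0 to 1744 lower, 0 to 7 members higher and 0 to 6 lower, and -2.09 to -1.45 for FOXM1. The calls came without shFOXM1 1 or shFOXM1 2, which leaves the closely matched controls to set the spread. The median of complex I was 0.06 with a pseudocount of 0.1 or 0.01 or scaling to the nuclear protein-coding total, and 0.07 with a mean of at least 5 FPKM or with voom, weighted or not. That of complex III was -0.02 with quantile normalization. With a library left out, the medians of complexes I to V ran from 0.06 to 0.09, -0.10 to 0.04, -0.06 to -0.01, -0.03 to 0.03 and -0.05 to 0.04, so the sign for complexes II, IV and V depends on 1 library.

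Quantile normalization reversed the sign of ATP5F1B (0.05) and brought MT-ND4 to 0.00. With a library left out, log2 fold changes crossed 0 for SDHA (-0.17 to 0.04), SDHB (-0.03 to 0.09), UQCRHL (-0.32 to 0.01), CYC1 (-0.06 to 0.10), COX7A2 (-0.01 to 0.35), COX8A (-0.16 to 0.02), ATP5F1B (-0.24 to 0.01), COX4I1 (-0.07 to 0.21), COX7B (-0.12 to 0.01) and NDUFAB1 (-0.23 to 0.01). The cause was not tested. Of 922 values of single genes under the alternatives, 877 stayed on the same side of 0 and of the threshold, 30 passed the threshold and 15 changed sign. With the replicate number as a block, limma called 0 genes and 0 members in either direction, and at an unadjusted p under 0.05 it gave 2 members higher and 1 lower. Deviations of same-numbered libraries correlated at 0.0421 over genes. With 2 pairs this cannot show whether the libraries were paired, and the labels do not say.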
